A study of Caenorhabditis elegans with 10 samples.

Results

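Fatty acid beta-oxidation was followed through 38 genes of Caenorhabditis elegans, of 17118 genes that had a probe set with 1 gene symbol on the array. The set held every such acdh, ech, cpt and acox gene apart from acdh-1 and ech-6, and it also held acs-2, hacd-1, kat-1, acaa-2, daf-22, dhs-28 and maoc-1. The rule goes by gene name and uses no measured value, although it was written with earlier results of these data known. Where a gene had more than 1 probe set, the one of highest mean over the 10 arrays stood for it. Of the 38 genes, 35 passed a filter on low values and were tested among 12641 genes. The other 3 (cpt-3, acdh-5 and ech-5) lay under it. A probe set named for both acox-1.3 and acox-1.4 was left out because its signal belongs to no single gene.

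Whole young adults were measured on 10 Affymetrix arrays, and each array held a single strain or feeding, with the RNA of 3 biological replicates mixed beforehand. The missense arrays were gas-1(fc21), mev-1(kn1) and isp-1(qm150), missense alleles that affect complex I, complex II and complex III of the electron transport chain. The RNAi arrays were N2 animals fed bacteria against 1 complex I subunit each, with 5 mM IPTG: nduf-6 (F22D6.4), nuo-5 (Y45G12B.1), ndua-13 (C34B2.8), ndab-1 (Y56A3A.19) and ndub-7 (D2030.4). The K12 wild type (N2, OP50 plates and then K12 liquid culture, as for the missense mutants) and the HT115 wild type (N2, HT115 throughout, with no IPTG or empty vector named) were single arrays and are the labelled controls of the missense and RNAi arrays. For every array the labels give 2 generations on plates. The label of isp-1 repeats the sequence name given for mev-1. The comparison was made to find metabolic pathways downstream of the mutations. Values below are log2 levels after quantile normalisation, or differences between them where so called. They follow the order in which the missense and RNAi arrays are listed above.

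Beta-oxidation shortens fatty acids from the carboxyl end and releases acetyl-CoA. In mitochondria a fatty acid is activated to its acyl-CoA, carried in on carnitine, and then passed round a cycle of dehydrogenase, hydratase, hydroxyacyl-CoA dehydrogenase and thiolase. The electrons taken by the acyl-CoA dehydrogenases reach ubiquinone through the electron transfer flavoprotein, and NADH from the hydroxyacyl-CoA step is oxidised by complex I, so the cycle feeds the chain that these mutants impair. Peroxisomes run a parallel cycle that starts with acyl-CoA oxidases. In C. elegans it shortens the side chains of ascarosides, the pheromones that promote dauer entry. Much of the storage fat of the worm lies in the intestine and hypodermis. In RNA from whole animals, fewer cells of a type and less RNA per cell cannot be told apart.

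The arrays were similar in signal, with deposited medians between 5.88 and 6.01. Over the tested genes the HT115 wild type correlated with the RNAi arrays at r = 0.940 to 0.980, and the K12 wild type with the same arrays at 0.954 to 0.989, so the RNAi arrays lay no nearer to their own control. In their own RNAi arrays the targets stood between 51.9% (nuo-5) and 88.5% (ndub-7) of the HT115 wild type, except ndab-1, which stood at 211% and so goes against its label. Each RNAi array is called by its label. The array labelled ndub-7 RNAi stood apart, with 19.2% of all genes at least 1.5-fold higher than in its wild type and 22.3% at least 1.5-fold lower. Markers of intestine (10 of 10 listed genes tested) and the adult vitellogenins (5 of 6) were present on all 10 arrays, with summed vitellogenin levels of 16.81 to 17.03 in the missense arrays, against 17.03 in the K12 wild type, and 16.61 to 17.29 in the RNAi arrays, against 17.14 in the HT115 wild type.

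No beta-oxidation gene passed the test against wild type. With limma and Benjamini-Hochberg adjustment over 12641 genes at 0.05, 0 of 35 were called in the 8 mutants against both wild types (background 0.0158% of all genes), 0 of 35 in missense against K12 wild type (0.0316%) and 0 of 35 in RNAi against HT115 wild type (0.396%). At an unadjusted limma p of 0.05, 1 gene was higher in each comparison and 0 were lower (background lower 4.56%, 1.78% and 5.66%). These were acaa-2 in the 8 mutants (2.35% of all genes higher at that level), acdh-11 in the missense mutants (1.27%) and ech-1.2 in the RNAi animals (2.54%). A wild type of 1 array has no spread of its own, and the fit takes that of the mutants in its place. The spread within the missense arrays and that within the RNAi arrays are pooled into 1 estimate. The missense p-values therefore also rest on the RNAi arrays, and the RNAi p-values on the missense arrays. In the fit over the 8 mutants the spread also holds the difference between the missense and RNAi responses.

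The differences were small and mostly upward. In the 8 mutants, 24 of 35 genes were higher and 11 lower, with a median of 0.15 (log2) against 0.0021 over all genes, of which 50.5% were higher. The missense median was 0.13 (23 of 35 higher, background 51.8%), and the RNAi median was 0.12 (24 of 35, background 50%). Of 280 single ratios (35 genes on 8 arrays), 38 were at least 1.5-fold higher and 26 at least 1.5-fold lower. That is 13.6% and 9.29%, set beside 10.5% and 11.8% over all genes. In 12 of the genes no ratio reached 1.5-fold on any array: cpt-2, cpt-6, acdh-3, acdh-7, acdh-12, acdh-13, acox-1.6, acox-3, maoc-1, ech-2, ech-3 and ech-4. The share of all genes without such a ratio was not computed, so this count does not mark the members as steady. The SD of the 8 ratios had a median of 0.32 in the members and 0.34 over all genes.

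**Figure D1:**
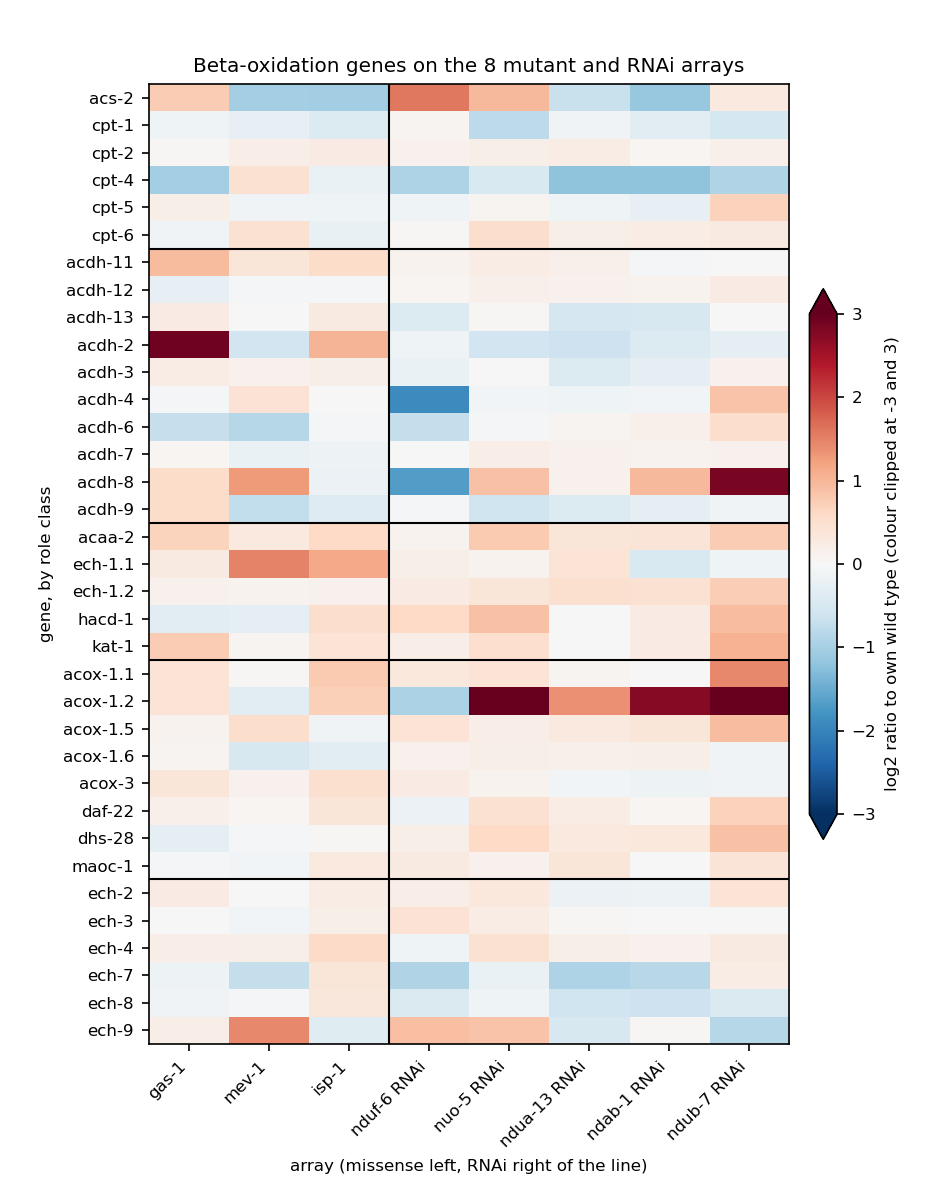
The log2 ratio of each of the 35 tested genes to its own wild type is shown as colour, with genes in rows by role and the 8 arrays in columns, missense left of the line and RNAi right of it. Most cells are pale, with 216 of 280 within 1.5-fold. The 5 cells farthest from 0 are acox-1.2 in ndub-7 RNAi (5.29), nuo-5 RNAi (3.20) and ndab-1 RNAi (2.73), acdh-2 in gas-1 (2.91) and acdh-8 in ndub-7 RNAi (2.85).

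The steps differed in how they stood. The class of hydratase, hydroxyacyl-CoA dehydrogenase and thiolase (5 genes) had a median of 0.41 in the 8 mutants, and its median was above 0 on 8 of 8 arrays, from 0.095 in mev-1 to 0.76 in ndub-7 RNAi. The 8 peroxisomal genes had a median of 0.21, with 0.78 in ndub-7 RNAi and -0.00018 in mev-1. Activation and the carnitine shuttle (6 tested) had a median of -0.037, and the acyl-CoA dehydrogenases (10 tested) one of 0.0077. The other ech genes (6 tested) stood at 0.11. These medians describe chosen genes and were not tested against each other.

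**Figure D2:**
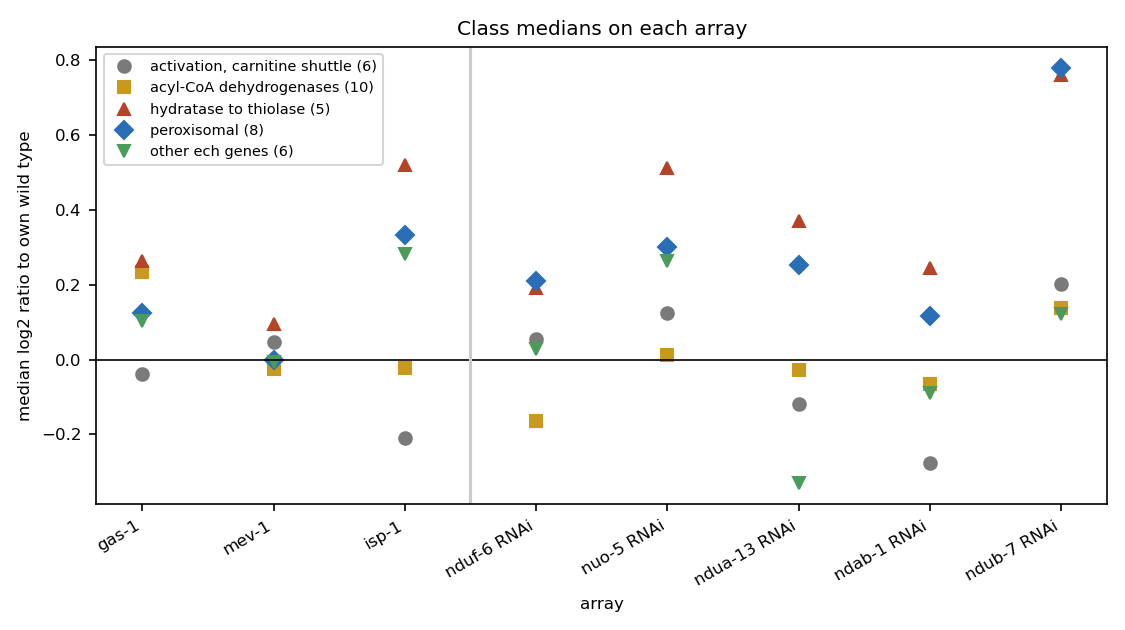
Each point is the median log2 ratio of a role class to the own wild type on 1 array, with the number of genes in the key. The hydratase to thiolase class (triangles) lies above 0 on all 8 arrays, while the acyl-CoA dehydrogenases lie between -0.16 and 0.24.

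The end of the mitochondrial cycle was covered by kat-1 and acaa-2, which encode thiolases that release acetyl-CoA, hacd-1, a hydroxyacyl-CoA dehydrogenase, and ech-1.1 and ech-1.2, counterparts of the alpha subunit of the mitochondrial trifunctional protein. The level of kat-1 was 12.31, 11.64 and 11.96 in the missense arrays, against 11.56 in the K12 wild type. The RNAi levels of kat-1 were 11.72, 12.04, 11.55, 11.77 and 12.58, against 11.53 in the HT115 wild type. Each mutant stood above its own wild type, by as little as 0.021 in the array labelled ndua-13 RNAi. The difference over the 8 mutants was 0.41 (SE 0.25, limma adjusted p = 0.846).

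For acaa-2 the missense levels were 11.20, 10.82 and 11.14, against 10.54 in the K12 wild type. The RNAi levels were 10.65, 11.34, 10.92, 10.94 and 11.32, against 10.55 in the HT115 wild type. All 8 mutant arrays lay above both wild types, which stood close together (K12 minus HT115 -0.017). The difference was 0.50 (SE 0.19), a 1.41-fold higher level, with a limma adjusted p of 0.634 (unadjusted 0.0244, rank 486 of 12641). A second probe set of acaa-2 was also higher on 8 of 8 arrays, by 0.17 to 0.76. In the RNAi arrays alone the acaa-2 difference was 0.48 (SE 0.27, limma adjusted p = 0.729).

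The missense levels of ech-1.2 were 10.25, 10.21 and 10.25, against 10.12 in the K12 wild type. Its RNAi levels were 10.02, 10.16, 10.26, 10.23 and 10.52, against 9.78 in the HT115 wild type. Groups did not overlap within either culture, but the K12 wild type stood 0.33 above the HT115 wild type and above the array labelled nduf-6 RNAi. The RNAi difference was 0.45 (SE 0.18, limma adjusted p = 0.529), and that over the 8 mutants 0.30 (SE 0.13, adjusted p = 0.722 by limma). Without the HT115 wild type the fit over the 8 mutants reduces to the missense difference, 0.12. Without the K12 wild type it reduces to the RNAi difference, 0.45. The second trifunctional gene, ech-1.1, had a low signal. It stood at 4.08, 5.31 and 4.96 in the missense arrays, against 3.82 in the K12 wild type, and at 4.18, 4.11, 4.42, 3.53 and 3.87 in the RNAi arrays, against 4.00 in the HT115 wild type. Its 2 highest arrays were mev-1 and isp-1, and the missense difference was 0.96 (SE 0.48, limma adjusted p = 1). Of its other 2 probe sets, both under the filter, 1 was also higher in mev-1 (by 0.71) and the other was not (-0.012).

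The hydroxyacyl-CoA dehydrogenase gene hacd-1 differed between the wild types as well as between mutants. Its missense levels were 11.40, 11.42 and 12.23, against 11.71 in the K12 wild type. Its RNAi levels were 11.68, 11.96, 11.06, 11.32 and 11.996, against 11.07 in the HT115 wild type, which lay 0.64 under the K12 wild type. Only isp-1 stood above its own wild type among the missense arrays, and 4 of 5 RNAi arrays did. The joint difference was 0.27 (SE 0.30, limma adjusted p = 0.968). Without the HT115 wild type it reduces to the missense difference, -0.027.

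**Figure D3:**
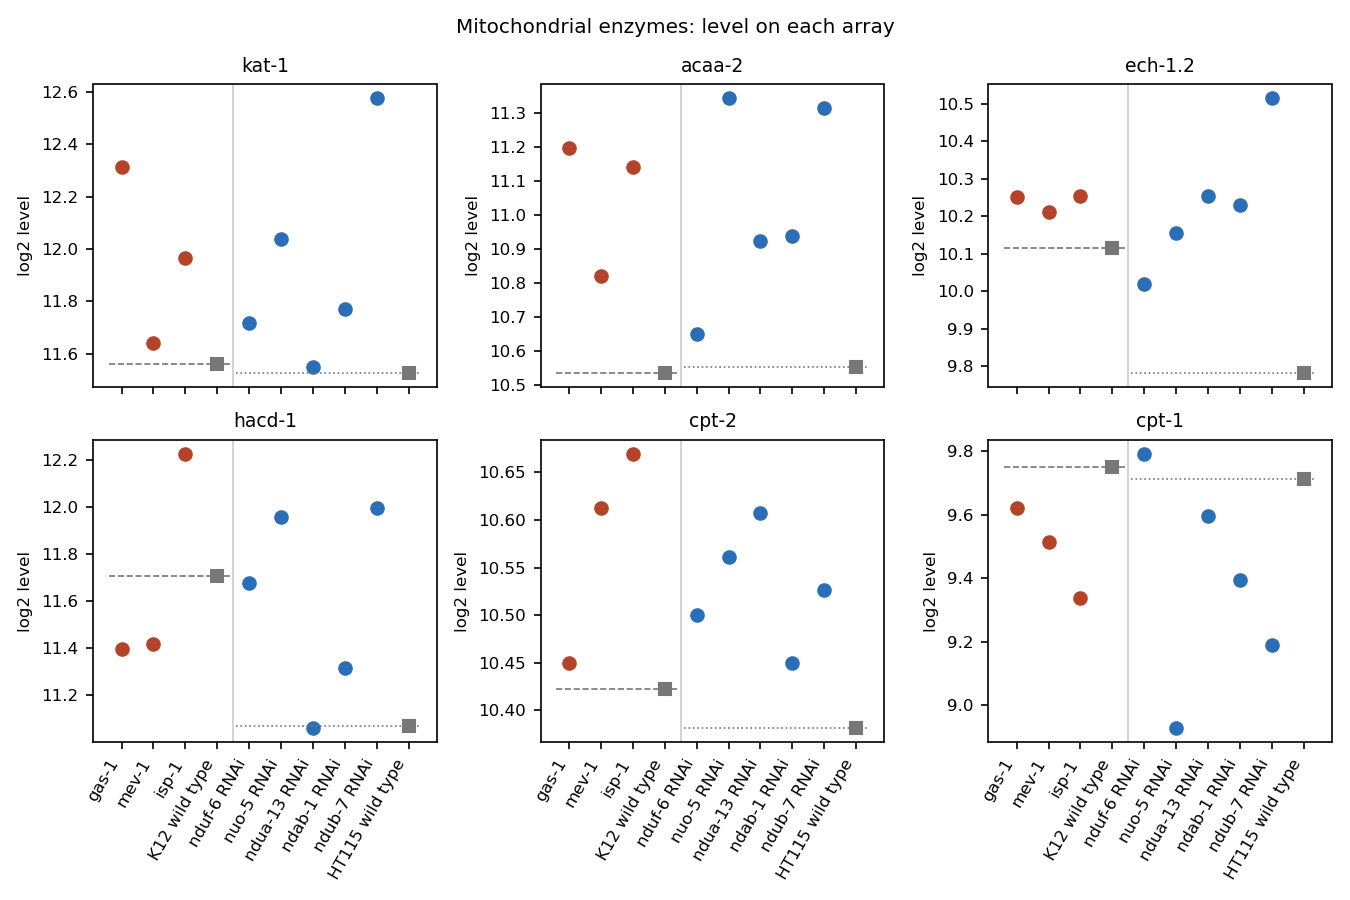
Log2 level of 6 mitochondrial genes on each array: circles are missense (red) and RNAi (blue) arrays, grey squares the wild types, and the dashed and dotted lines mark the K12 and HT115 wild-type levels, with axes that do not start at 0. For kat-1, acaa-2, ech-1.2 and cpt-2 every circle lies above the line of its own wild type; for cpt-1 7 of 8 lie below it.

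These counts can be read against the rest of the array. All 8 mutants stood above their own wild type for 4 of the 35 genes, cpt-2, acaa-2, ech-1.2 and kat-1, or 11.4%, where the background was 4.71%. All 8 stood below it for 0 genes (background 6.76%). Above both wild types on all 8 arrays lay 2 genes, acaa-2 and cpt-2 (5.71%, background 2.03%). The ratios of a culture share 1 wild-type array, so agreement between them is not replication.

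Entry of fatty acids into mitochondria depends on activation by an acyl-CoA synthetase and on the carnitine palmitoyltransferases at the outer (cpt-1) and inner (cpt-2) membrane. The gene acs-2 encodes a mitochondrial acyl-CoA synthetase known for its strong induction by fasting through the nuclear receptor NHR-49. Its missense levels were 12.62, 10.83 and 10.81, against 11.85 in the K12 wild type. Its RNAi levels were 11.43, 10.80, 9.17, 8.70 and 10.14, against 9.84 in the HT115 wild type. The mutants took both directions: gas-1 was above its wild type while mev-1 and isp-1 were 2.03-fold and 2.07-fold below it, and the arrays labelled nduf-6, nuo-5 and ndub-7 RNAi were above while ndua-13 and ndab-1 RNAi were below. The joint difference was -0.10 (SE 0.72, limma adjusted p = 0.997). It reduces to the RNAi difference, 0.21, without the K12 wild type and to the missense difference, -0.43, without the HT115 wild type.

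The larger acs-2 difference lay between the wild types. The K12 wild type stood 2.01 (log2) above the HT115 wild type, a 4.03-fold level, and the second probe set gave 10.84 in the K12 wild type, against 8.92 in the HT115 wild type. That second probe set kept the direction of each mutant against its wild type on 8 of 8 arrays, but ndab-1 RNAi stood at -0.24 on it, against -1.14 on the probe set used. Between the wild types 2 of 35 genes were at least 1.5-fold higher in K12 (acs-2 and hacd-1, background 10.3%) and 2 at least 1.5-fold lower (cpt-4 and ech-7, background 10.7%). Each wild type is 1 array, so this difference has no test.

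**Figure D4:**
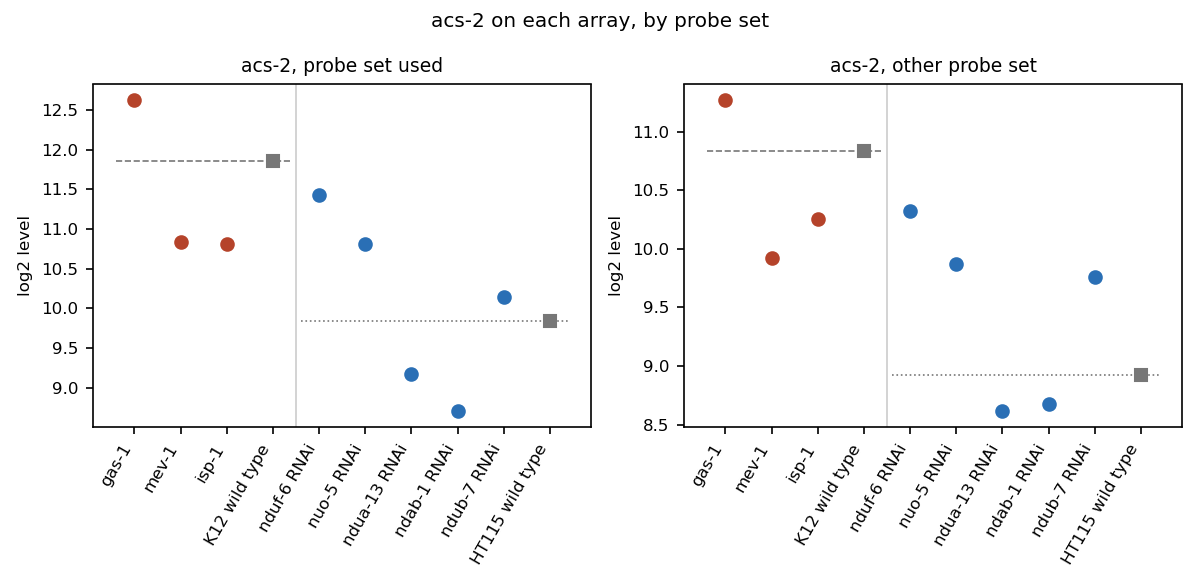
Log2 level of acs-2 on each array for its 2 probe sets, with symbols and lines as for the mitochondrial genes and axes that do not start at 0. On both, gas-1 is the highest array, the K12 wild type stands above mev-1 and isp-1, and the HT115 wild type stands above ndua-13 and ndab-1 RNAi only.

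The carnitine palmitoyltransferase genes cpt-1 and cpt-2 differed little from wild type and in different directions. The level of cpt-2 was 10.45, 10.61 and 10.67 in the missense arrays, against 10.42 in the K12 wild type, and 10.50, 10.56, 10.61, 10.45 and 10.53 in the RNAi arrays, against 10.38 in the HT115 wild type. All 8 mutants were above both wild types, by a difference of 0.15 (SE 0.09, limma adjusted p = 0.825), or 1.11-fold. The level of cpt-1 was 9.62, 9.51 and 9.34 in the missense arrays, against 9.75 in the K12 wild type, and 9.79, 8.93, 9.60, 9.39 and 9.19 in the RNAi arrays, against 9.71 in the HT115 wild type. It was lower than wild type in 7 of 8 mutants, the exception being nduf-6 RNAi, by a difference of -0.30 (SE 0.20, limma adjusted p = 0.881).

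Another family member, cpt-4, stood at 5.35, 6.83 and 6.18 in the missense arrays, against 6.37 in the K12 wild type. In the RNAi arrays it stood at 6.13, 6.62, 5.87, 5.86 and 6.17, against 7.06 in the HT115 wild type. The HT115 wild type was the highest of the 10 arrays, and all 5 RNAi arrays lay below it, by a difference of -0.94 (SE 0.51, limma adjusted p = 0.711). Against both wild types the difference was -0.61 (SE 0.37, limma adjusted p = 0.827). Without the HT115 wild type it reduces to the missense difference, -0.25. Its second probe set was also lower on 5 of 5 RNAi arrays, at differences of -1.53 to -0.75. Of the rest, cpt-5 and cpt-6 differed from wild type by -0.24 to 0.69 on single arrays, and cpt-3 lay under the filter at 2.28 to 2.48 on all 10 arrays.

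The acyl-CoA dehydrogenases, which carry out the first oxidation of the mitochondrial cycle, split between steady and variable genes. The medium-chain homolog acdh-7 stood at 10.63, 10.38 and 10.42 in the missense arrays, against 10.57 in the K12 wild type. In the RNAi arrays it stood at 10.61, 10.78, 10.70, 10.68 and 10.72, against 10.58 in the HT115 wild type. Both of its probe sets are of a type that can match several transcripts, and acdh-10, its neighbour in assembly WBcel235, was not analysed here. The levels of acdh-3 were 11.60, 11.51 and 11.56 in the missense arrays, against 11.39 in the K12 wild type, and 11.55, 11.75, 11.36, 11.48 and 11.90 in the RNAi arrays, against 11.76 in the HT115 wild type. Neither gene differed by 1.5-fold on any array, although the second probe set of acdh-7 stood 0.62 higher in nuo-5 RNAi.

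The gene acdh-11, whose product in C. elegans binds fatty acids and restrains the desaturase gene fat-7, was the missense gene of smallest p. Its levels were 9.17, 8.60 and 8.78 in the missense arrays, against 8.23 in the K12 wild type. The RNAi levels of acdh-11 were 8.66, 8.79, 8.71, 8.4996 and 8.54, against 8.56 in the HT115 wild type. All 3 missense arrays were higher than their wild type (3 of 3 higher held for 13 of the 35 genes, background 25.5%), by a difference of 0.62 (SE 0.24), or 1.54-fold, with a limma adjusted p of 1 (unadjusted 0.032). That SE pools the missense arrays (SD 0.29) with the RNAi arrays, which lay closer together (SD 0.12). The K12 wild type was the lowest of the 10 arrays (K12 minus HT115 -0.33). The missense response exceeded the RNAi response by 0.54 (SE 0.33, limma adjusted p = 0.999).

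Single mutants stood out for acdh-2, a close relative of the propionate shunt gene acdh-1. Its missense levels were 6.53, 3.04 and 4.64, against 3.62 in the K12 wild type, and its RNAi levels were 3.66, 3.21, 3.17, 3.36 and 3.48, against 3.78 in the HT115 wild type. It was 7.51-fold higher in gas-1 and 2.02-fold higher in isp-1, and lower in mev-1. A second probe set gave 2.59 in gas-1 and 1.15 in isp-1 but -0.073 in mev-1. The missense difference was 1.12 (SE 1.02, limma adjusted p = 1), 0.22 without gas-1 and 1.96 without mev-1. That SE pools the missense arrays (SD 1.74) with the RNAi arrays (SD 0.20), so it does not measure the spread between the missense mutants alone. The propionate shunt genes, which are not members, had a 5-gene median ratio of 1.16 in gas-1, with -0.020 for mev-1 and 1.08 for isp-1, but their highest array was ndub-7 RNAi at 1.81, where acdh-2 stood at -0.30.

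Lower levels in the missense arrays were seen for acdh-6, at 5.98, 5.82 and 6.62 in the missense arrays, against 6.68 in the K12 wild type. The RNAi levels were 6.02, 6.68, 6.82, 6.89 and 7.28, against 6.74 in the HT115 wild type. All 3 missense arrays were lower, isp-1 at -0.06 (3 of 3 lower held for 3 of the 35 genes, or 8.57%, background 25.5%). The acdh-6 difference was -0.54 (SE 0.49, limma adjusted p = 1). The gene acdh-9 ranged from -0.73 in mev-1 to 0.55 in gas-1 and was lower than wild type in 5 of 5 RNAi arrays. The very-long-chain homolog acdh-12 and acdh-13 stood between -0.50 and 0.28 of their wild types on single arrays, and acdh-5 lay under the filter at 2.00 to 2.17.

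Among the acyl-CoA dehydrogenases, the medium-chain homolog acdh-8 and acdh-4 varied most between RNAi arrays. Levels of acdh-8 were 6.58, 7.30 and 5.86 in the missense arrays, against 6.02 in the K12 wild type. In the RNAi arrays they were 3.88, 6.44, 5.70, 6.53 and 8.41, against 5.56 in the HT115 wild type. The array labelled ndub-7 RNAi was 7.21-fold higher than wild type and that labelled nduf-6 RNAi 3.19-fold lower, and the joint difference was 0.60 (SE 0.91, limma adjusted p = 0.979). It was 0.31 without ndub-7 RNAi and 0.89 without nduf-6 RNAi. The missense levels of acdh-4 were 5.41, 5.87 and 5.45, against 5.45 in the K12 wild type, and the RNAi levels were 3.57, 5.41, 5.35, 5.42 and 6.33, against 5.49 in the HT115 wild type. The same 2 RNAi arrays stood at its ends, nduf-6 RNAi being 3.78-fold lower than wild type.

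Sperm and moulting markers were read beside these genes. The summed level of the sperm list (4 of 7 listed genes tested; spe-9, spe-38 and fer-1 lay under the filter) was 8.69 to 10.19 in the missense arrays, against 9.34 in the K12 wild type. It was 6.38 to 10.63 in the RNAi arrays, against 8.35 in the HT115 wild type. The lowest of the 10 arrays was nduf-6 RNAi and the 2 highest were ndub-7 RNAi and mev-1, as for acdh-8 and acdh-4. The part of sperm RNA in the acdh-8 and acdh-4 values was not tested. Moulting markers (7 of 7 tested) were at 11.87 to 12.50 in the missense arrays, against 12.57 in the K12 wild type, and at 12.27 to 13.51 in the RNAi arrays, against 12.74 in the HT115 wild type, with ndub-7 RNAi again the highest. Other lists also stood at an end in that array: the summed oocyte and embryo level (7 of 7 tested) was 14.23 in ndub-7 RNAi, against 15.07 in the HT115 wild type, and the summed vitellogenin level was 16.61, against 17.14, each the lowest of the 10 arrays. Both lists were highest in nduf-6 RNAi.

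**Figure D5:**
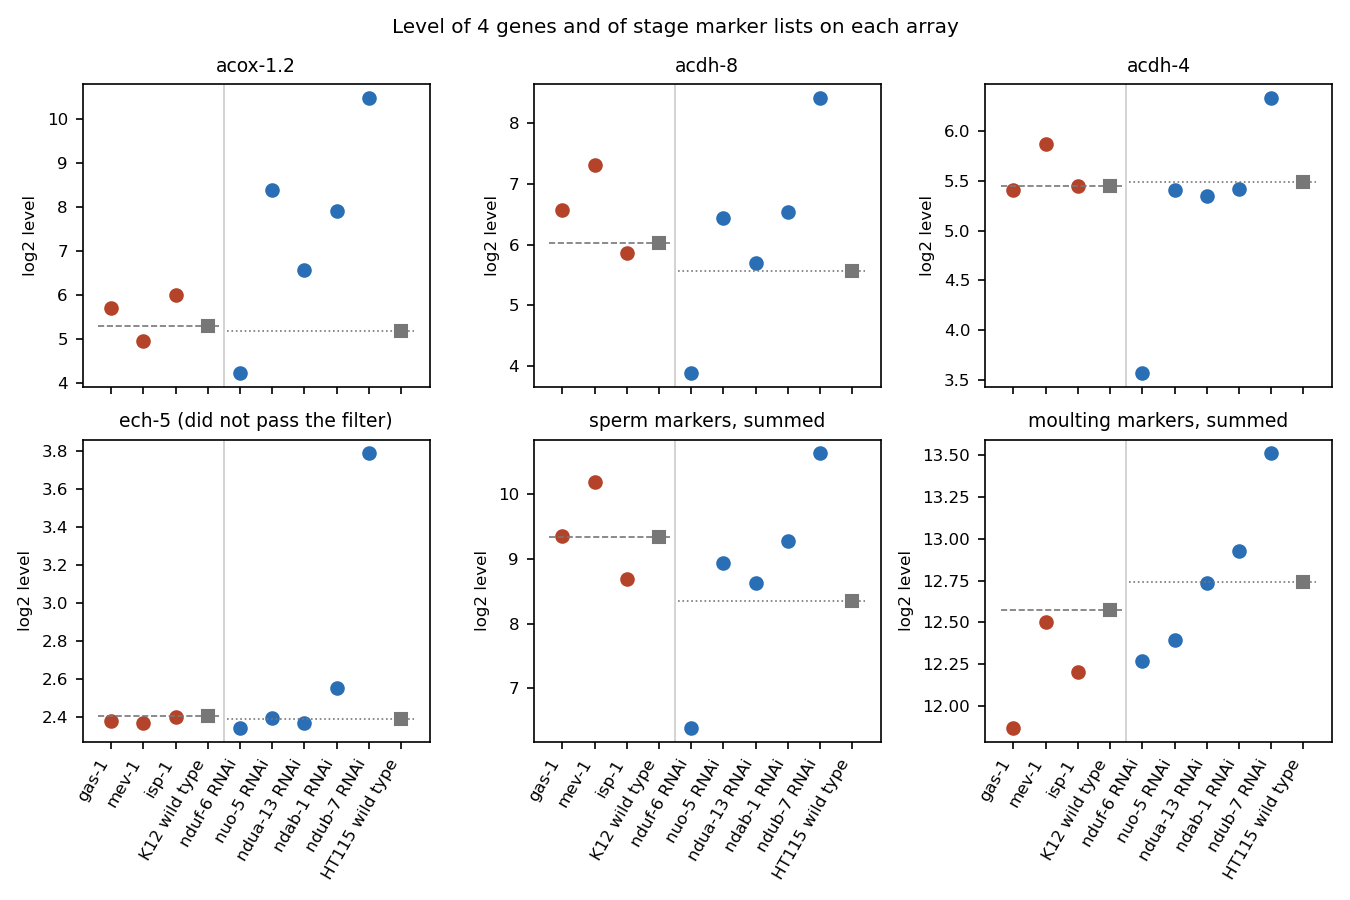
Log2 level of acox-1.2, acdh-8, acdh-4 and ech-5 on each array, beside the log2 summed level of the sperm (4 genes) and moulting (7 genes) lists, with symbols and lines as for the mitochondrial genes and axes that do not start at 0. The array labelled ndub-7 RNAi is the highest of the 10 in all 6 panels, and that labelled nduf-6 RNAi is the lowest for acox-1.2, acdh-8, acdh-4 and the sperm list. For ech-5, which lies under the filter, nduf-6 RNAi is lowest only by a margin too small to read (2.34, against 2.36 in mev-1).

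The peroxisomal cycle was represented by acyl-CoA oxidases (acox genes) and by maoc-1, dhs-28 and daf-22, which encode the hydratase, dehydrogenase and thiolase steps of ascaroside side-chain shortening. The widest range of all 35 genes was that of acox-1.2, whose oxidase acts in ascaroside synthesis. Its missense levels were 5.70, 4.94 and 5.997, against 5.29 in the K12 wild type. Its RNAi levels were 4.22, 8.37, 6.56, 7.90 and 10.46, against 5.18 in the HT115 wild type. In the missense arrays it stayed within 0.71 of wild type, whereas in RNAi arrays it was 9.16-fold (nuo-5), 2.60-fold (ndua-13), 6.61-fold (ndab-1) and 39.0-fold (ndub-7) higher and, in nduf-6 RNAi, 1.94-fold lower.

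The acox-1.2 difference was 2.33 in the RNAi arrays, with 1 of 5 below wild type and 4 above. It had an SE of 1.81, pooled over the missense (SD 0.55) and RNAi arrays (SD 2.31), and a limma adjusted p of 0.892. Over the 8 mutants it was 1.35 (SE 1.28, limma adjusted p = 0.946), and the missense response minus the RNAi response was -2.07 (SE 2.63, limma adjusted p = 0.999). Without the array labelled ndub-7 RNAi the RNAi difference was 1.59, and without nduf-6 RNAi it was 3.15. The joint difference reduces to the missense difference, 0.26, without the HT115 wild type, and to the RNAi difference, 2.33, without the K12 wild type. The response difference was -1.33 without ndub-7 RNAi. In nuo-5 RNAi, the second highest array for acox-1.2, the summed sperm level was 8.94, against 8.35 in the HT115 wild type, and the summed moulting level was 12.39, against 12.74 in the HT115 wild type. The part of the marker lists in the acox-1.2 values was not tested.

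The neighbouring gene acox-1.1 varied less. Signal shared between the related acox genes was not tested. Levels of acox-1.1 were 7.79, 7.41 and 8.16 in the missense arrays, against 7.38 in the K12 wild type, and 7.52, 7.60, 7.27, 7.18 and 8.64 in the RNAi arrays, against 7.20 in the HT115 wild type. It was higher in 7 of 8 mutants by a difference of 0.43 (SE 0.36, limma adjusted p = 0.933), most of all in ndub-7 RNAi (2.72-fold). For acox-1.5 the missense levels were 8.83, 9.26 and 8.63, against 8.73 in the K12 wild type, and the RNAi levels were 9.48, 9.28, 9.37, 9.45 and 10.001, against 9.08 in the HT115 wild type. All 5 RNAi arrays and 2 of 3 missense arrays were higher, with a joint difference of 0.31 (SE 0.21, limma adjusted p = 0.879). Without the HT115 wild type this reduces to the missense difference, 0.18.

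The peroxisomal dehydrogenase gene dhs-28 stood at 10.74, 10.97 and 11.05 in the missense arrays, against 11.001 in the K12 wild type, and at 10.94, 11.36, 11.06, 11.08 and 11.63 in the RNAi arrays, against 10.76 in the HT115 wild type. All 5 RNAi arrays were above their wild type and 2 of 3 missense arrays were below theirs. The RNAi difference was 0.45 (SE 0.25, limma adjusted p = 0.725), and the missense response minus the RNAi response was -0.53 (SE 0.37, limma adjusted p = 0.999). A second dhs-28 probe set was higher on the same 5 arrays, by 0.24 to 0.71.

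The thiolase gene daf-22, needed for short-chain ascarosides, stood at 9.82, 9.74 and 10.04 in the missense arrays, against 9.68 in the K12 wild type, and at 9.51, 10.15, 9.91, 9.76 and 10.39 in the RNAi arrays, against 9.70 in the HT115 wild type. It was higher in 7 of 8 mutants, nduf-6 RNAi excepted (joint difference 0.22, SE 0.20, limma adjusted p = 0.944). The hydratase gene maoc-1 stood at 10.12, 10.09 and 10.48 in the missense arrays, against 10.17 in the K12 wild type, and at 10.43, 10.29, 10.51, 10.18 and 10.54 in the RNAi arrays, against 10.15 in the HT115 wild type. It was higher in 5 of 5 RNAi arrays, by as little as 0.022 in ndab-1 RNAi, and in 1 of 3 missense arrays (joint difference 0.15, SE 0.14, limma adjusted p = 0.944). That difference reduces to the missense difference, 0.056, without the HT115 wild type, and to the RNAi difference, 0.24, without the K12 wild type.

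Levels of acox-3 were 10.38, 10.15 and 10.48 in the missense arrays, against 10.01 in the K12 wild type, and 10.19, 10.05, 9.86, 9.79 and 9.83 in the RNAi arrays, against 9.95 in the HT115 wild type. The missense arrays were higher in 3 of 3 (difference 0.32, SE 0.21, limma adjusted p = 1), while RNAi arrays lay on both sides. The remaining oxidase, acox-1.6, stayed between -0.48 (mev-1) and 0.17 (nuo-5 RNAi) of its wild types. In all, 10 of 35 genes were higher in 5 of 5 RNAi arrays (background 15.1%), 3 of them peroxisomal (acox-1.5, dhs-28 and maoc-1). Another 4 were lower in 5 of 5 (cpt-4, acdh-2, acdh-9 and ech-8, 11.4%, background 18.3%).

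The remaining genes of the enoyl-CoA hydratase and isomerase family were not assigned to a compartment. The level of ech-4 was 10.79, 10.78 and 11.18 in the missense arrays, against 10.60 in the K12 wild type, and 10.53, 11.13, 10.85, 10.81 and 10.93 in the RNAi arrays, against 10.67 in the HT115 wild type. It was higher in 7 of 8 mutants (difference 0.25, SE 0.16, limma adjusted p = 0.859). By contrast, ech-7 stood at 9.64, 9.06 and 10.15 in the missense arrays, against 9.78 in the K12 wild type, and at 9.46, 10.17, 9.44, 9.54 and 10.60 in the RNAi arrays, against 10.37 in the HT115 wild type. It was lower in 6 of 8 mutants, isp-1 and ndub-7 RNAi excepted (difference -0.36, SE 0.35, limma adjusted p = 0.953). Without the HT115 wild type the difference reduces to that of the missense arrays, -0.17.

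For ech-8 the missense levels were 6.99, 7.07 and 7.43, against 7.09 in the K12 wild type, and the RNAi levels were 7.01, 7.31, 6.85, 6.82 and 7.01, against 7.45 in the HT115 wild type. The HT115 wild type was the highest of the 10 arrays, and the RNAi difference was -0.45 (SE 0.27, limma adjusted p = 0.766). Its relative ech-9 was 2.70-fold higher in mev-1 and ranged from -0.87 (ndub-7) to 0.91 (nduf-6) in the RNAi arrays. The genes ech-2 and ech-3 stood between -0.18 and 0.44 of wild type on single arrays. Under the filter, ech-5 stood at 2.34 to 2.55 on 9 arrays and at 3.79 in ndub-7 RNAi.

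Whether the missense and RNAi responses differed was tested directly, and 0 of 35 genes passed (background 0.0475% by limma; at an unadjusted p of 0.05, 0 of 35, background 4.23%). The response difference (missense minus RNAi) was above 0 for 18 of 35 genes (background 53.5%), with a median of 0.0073, against 0.033 over all genes. A single gene, acdh-12, was lower in 3 of 3 missense arrays and higher in 5 of 5 RNAi arrays (1 of 35, or 2.86%, had opposite signs, background 6.45%). Its levels were 7.89, 8.08 and 8.08 in the missense arrays, against 8.13 in the K12 wild type, and 8.09, 8.20, 8.16, 8.15 and 8.28 in the RNAi arrays, against 8.04 in the HT115 wild type. The difference between its responses was -0.26 (SE 0.25, limma adjusted p = 0.999), less than its error allows to be called.

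Counted by array, at least 1.5-fold higher were 5 of 35 genes in gas-1 (background 7.85%), 3 in mev-1 (9.02%) and 5 in isp-1 (6.47%). In the RNAi arrays the counts were 3 in nduf-6 (8.6%), 7 in nuo-5 (9.88%), 1 in ndua-13 (11.4%), 2 in ndab-1 (11.8%) and 12 in ndub-7 (19.2%). At least 1.5-fold lower were 2, 4 and 1 genes in gas-1 (9.45%), mev-1 (8.71%) and isp-1 (7.25%). Lower in the RNAi arrays were 6 in nduf-6 (10.5%), 2 in nuo-5 (10.3%), 5 in ndua-13 (12.7%), 4 in ndab-1 (12.9%) and 2 in ndub-7 (22.3%). The 12 genes higher in ndub-7 RNAi included 5 of 8 peroxisomal genes and 4 of the 5 genes from hydratase to thiolase.

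Genes that serve the pathway from outside were also without a call. Of 6 genes for the electron transfer flavoprotein, its ubiquinone oxidoreductase, the carnitine carrier and carnitine synthesis, 0 passed over all genes by limma. At an unadjusted limma p of 0.05, 0 were higher and 1 lower in the 8 mutants (background 2.35% and 4.56%). The lower one was gbh-2, a gamma-butyrobetaine hydroxylase of carnitine synthesis, at -1.003 (SE 0.29, limma adjusted p = 0.577). The flavoprotein subunit gene etfa-1 stood at 0.42 (SE 0.19, limma adjusted p = 0.723), and etfb-1 at 0.32 (SE 0.22). Of 13 regulators of fat oxidation, 0 passed, and 1, the mitochondrial stress factor gene atfs-1 at 0.46 (SE 0.19), was higher at an unadjusted limma p of 0.05 (background 2.35%).

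Of 18 other acyl-CoA synthetases tested, 0 passed the limma test in the 8 mutants. Past an unadjusted limma p of 0.05 were acs-21 at 0.73 (SE 0.31, background higher 2.35%) and acs-3 at -0.77 (SE 0.25, background lower 4.56%). Among 16 tested genes for peroxisome assembly and transport, 0 passed and 0 reached that level, with a median of 0.11. The 5 genes of the propionate shunt also gave 0 calls, but all 5 were higher in the 8 mutants, with a median of 0.67. At an unadjusted limma p of 0.05, 2 of the 5 were higher and 0 lower (background 2.35% and 4.56%). Of the shunt genes, acdh-1, which opens the shunt, stood at 2.64 (SE 1.1, limma adjusted p = 0.711) and ech-6, an enoyl-CoA hydratase, at 0.87 (SE 0.35, limma adjusted p = 0.681).

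Tissue markers were read beside the members because they come from the same whole animals. The summed intestine level was 15.99 to 16.36 in the missense arrays, against 16.30 in the K12 wild type, and 15.97 to 16.45 in the RNAi arrays, against 16.10 in the HT115 wild type. The median RNAi difference of the 10 intestine genes was 0.48 (9 higher, 1 lower, 0 called by limma), larger than the members' RNAi median of 0.12. At an unadjusted limma p of 0.05, 1 intestine gene was higher and 0 lower in RNAi (background 2.54% and 5.66%). In missense the intestine median was the smaller, at 0.024 (6 higher, 4 lower), against 0.13 for the members. By class, the hydratase to thiolase genes had medians of 0.45 in RNAi and 0.41 in missense, and the peroxisomal genes 0.34 and 0.18. The hypodermis list (5 of 7 tested) was at 12.71 to 12.88 in the missense arrays, against 13.26 in the K12 wild type, and at 12.55 to 13.55 in the RNAi arrays, against 13.24 in the HT115 wild type. The part of either tissue in the members' values was not tested.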

How the data were processed

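The labels describe 1 Affymetrix array per strain or feeding, hybridised with biotin-labelled cRNA from RNA of 3 pooled biological replicates. Adults were enriched by sucrose centrifugation, per the labels' protocols. The authors deposited log2 values for 22625 probe sets, taken to be log2 because they span 1.43 to 16.01. Their summarisation and normalisation are not given in the sources used here.

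Array medians differed by 0.13, and values were quantile normalised without the 77 control probe sets. Probe sets with several symbols (887) or none (895) were left out. Names came from the platform annotation, updated through RefSeq (assembly WBcel235) for 20701 of 20766 probe sets. Probe sets with a mean under the 25th percentile (2.60) were left out, and a gene was given by its probe set of highest mean, which left 12641 genes. Precision is limited by the number of arrays.

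All tests used limma, version 3.58.1, under R 4.3.3 (moderated, mean-variance trend, two-sided, Benjamini-Hochberg at 0.05). The 8 mutants were fitted with terms for culture and mutant (7 residual degrees of freedom), and the other comparisons with 4 groups (6). The fits were tested on simulated data. The role of each gene was assigned by family, not measured. Members, lists and tests were chosen with earlier results of these data known. The genes given on every array were acs-2, cpt-1, kat-1, daf-22 and, per class, the 3 of smallest p and the 2 of highest mean. Levels on every array are also given for acdh-8, acdh-4, acox-1.2, acox-1.1 and acdh-12, which that rule did not pick for this, and these and ech-5 were chosen after their values were seen. The others named were extremes of a comparison or array, or complete a class. Other normalisations, filters, probe set rules, references and left-out arrays were tried. The body wall muscle, neuron, oocyte and vitellogenin lists had medians in the 8 mutants of -0.19, 0.017, -0.070 and -0.11. No sequence is shown.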

Additional observations from a re-analysis of the deposited data

Results flagged for a closer look

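The array labelled ndub-7 RNAi stood apart from the other 4 RNAi arrays, relative to the range of the 5, for 3 acyl-CoA oxidase genes. For acox-1.1 it stood at 8.64, with the next array at 7.60. For acox-1.5 it stood at 10.0006, with the next array at 9.48. For acox-1.6 it was the lowest at 7.03, with the next at 7.24, but its log2 ratio to the HT115 wild type was only -0.094. The gap was more than 0.71 of the range of the 5 arrays in each. Of 35 genes examined in this way 3 were picked out. The rule is set so that chance alone picks out about 1 in 20 groups, but the share of all genes picked out was not computed. This count therefore does not mark the oxidase genes out from the rest of that array. That array also had the highest summed sperm, moulting and hypodermis marker levels of the 10 arrays and the lowest oocyte and vitellogenin levels. Its median ratio to wild type was 2.14 for sperm, 0.97 for moulting, 0.33 for hypodermis, 0.65 for intestine, -0.82 for oocyte and -0.54 for vitellogenin genes. The hypodermis genes went both ways: rol-6 stood at 5.00, dpy-7 at 0.42 and elt-3 at 0.33, but lin-26 at -0.016 and col-19 at -0.62. Among the vitellogenins vit-1 was higher (1.13), while vit-2 (-0.90), vit-4 (-0.54), vit-5 (-0.44) and vit-6 (-0.65) were lower. The part of these marker lists in the oxidase values was not tested.

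The missense and RNAi arrays of acdh-12 lay on opposite sides of their wild types, at a mean of -0.12 in the missense arrays and 0.14 in the RNAi arrays. The difference of -0.26 (missense response minus RNAi response) did not pass limma's test (adjusted p = 0.999).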

How the results depend on the processing

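No beta-oxidation gene was called in any of the 4 comparisons under any alternative run (18, 16, 17 and 15 for the 8 mutants, missense, RNAi and the response difference). The members' median stayed at 0.12 to 0.17 in the 8 mutants, 0.096 to 0.15 in missense and 0.085 to 0.15 in RNAi arrays. That of the response difference lay between -0.068 and 0.094. Of 528 differences of single genes under an alternative, 7 changed sign, none of them called. For acs-2 in the 8 mutants the difference was -0.35 without gas-1, 0.0072 with all probe sets averaged, 0.052 without mev-1, 0.058 without isp-1, 0.0098 without ndua-13 RNAi, 0.071 without ndab-1 RNAi and 0.21 without the K12 wild type, and for hacd-1 it was -0.027 without the HT115 wild type. Without the K12 wild type the joint fit gives the RNAi difference, and without the HT115 wild type the missense difference. The count of genes above their own wild type on every array was 3 to 6.

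Counts over all genes were unstable. In the 8 mutants the 2 calls were 4 with values as deposited, 12 without a filter, and 0 with median centring, a 50th percentile filter, averaged probe sets, no trend or no culture term. They were 1 without nduf-6 and ndub-7 RNAi together, and 0 to 7 with single mutants left out. Without the K12 wild type this fit reduces to the RNAi comparison, and without the HT115 wild type to the missense comparison. Its counts are then those of the main runs given next for these comparisons. In missense the 4 calls were 2 with median centring, 98 without a filter, 1 with the stricter filter, 0 with own groups only, 7 with both wild types as reference and 1 to 10 with single mutants left out. In RNAi the 50 calls were 305 without a filter, 0 with the stricter filter, 14 with own groups only, 0 with both wild types as reference, 91 without nduf-6 and ndub-7 RNAi together and 33 to 69 with single arrays left out. For the response difference the 6 calls were 251 without a filter, 1 with the stricter filter, 3 without a trend, 14 without nduf-6 and ndub-7 RNAi together, and 4 to 9 with single arrays left out. The cause of the other changes was not tested. The settings without a wild type or without 2 RNAi arrays were chosen after seeing the data. No paired analysis was possible because each wild type is a single array and the numbers in the RNAi labels count feedings against different genes, not replicates. With 1 array a strain and no detection call, small differences and low signals such as ech-1.1 and acdh-2 are limited by noise that was not measured.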
